A study of Mus musculus with 12 samples.

Results

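*Egr1*, *Egr2*, *Egr3*, and *Egr4* encode the early growth response (EGR) transcription factors. *Nab1* and *Nab2* encode corepressors that bind Egr1, Egr2, and Egr3. These 6 genes were taken by symbol from a table of 51490 genes, and all 6 were expressed highly enough to be tested. RNA was measured by bulk RNA-seq in immortalized mouse embryonic palatal mesenchyme (iMEPM) cells, a line derived from the palatal shelves of a male *Cdkn2a*-/- embryo, so that every sample lacks *Cdkn2a*. Cells expressed either a scramble shRNA or an shRNA against the 3′ UTR of *Srsf3* (shSrsf3), which encodes a splicing factor of the serine/arginine-rich family. Each shRNA was delivered by lentivirus, and cells were selected with puromycin and sorted for GFP to give 1 line per shRNA. An effect of *Srsf3* knockdown and any other difference between these lines cannot be told apart. Serum-starved cells received no ligand (-PDGF-AA) or, for 1 hr, PDGF-AA at 10 ng/mL (+PDGF-AA), the ligand of the receptor PDGFRα. The 4 conditions had 3 samples each, described as biological replicates.

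The genes lie apart from each other on GRCm39. *Egr1* spans chr18:34992876-34998049 on the plus strand, and *Egr2* spans chr10:67371305-67378018 on the plus strand. *Egr3* is at chr14:70314350-70320063 on the plus strand, and *Egr4* is at chr6:85485678-85490675 on the minus strand. *Nab1* is at chr1:52494147-52539838 and *Nab2* at chr10:127496786-127504458, both on the minus strand. The 4 EGR genes each have 2 exons in their canonical transcript, whereas *Nab1* has 8 and *Nab2* has 7. At most 3.65% of the 31-base stretches of a member's transcripts, in *Nab1*, also occur in transcripts of another gene. Genes on the opposite strand overlap *Egr2* (*Gm66196*), *Egr4* (*Gm67895*), and *Nab1* (*Gm70215*), and those that overlap *Nab2* are given with its levels. No levels of *Gm66196*, *Gm67895*, or *Gm70215* are given here, and their part in the values of these members was not tested.

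EGR proteins are zinc finger transcription factors that bind GC-rich DNA and whose genes are among the first to be transcribed after a growth factor reaches the cell. Receptor tyrosine kinases switch them on mainly through ERK, which phosphorylates the Elk family of ETS factors that sit with serum response factor (SRF) on CArG boxes of immediate early genes. Nab1 and Nab2 bind a repression domain of Egr1, Egr2, and Egr3 and recruit the nucleosome remodeling and deacetylase (NuRD) complex. *Nab2* is itself an EGR target, which makes it part of a negative feedback loop.

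Promoter windows from RefSeq (GRCm38.p6, 250 bases before to 50 bases after a start site) were found for *Egr2*, *Egr4*, *Nab1*, and *Nab2*, that is, for 4 of the 6 genes. These were searched on both strands for the CArG box, the ETS site CCGGAA, the cAMP response element TGACGTCA, and the EGR site GCGNGGGCG. The matches below are shown because they are the letters of the SRF input and of the EGR factors' own binding site, in capitals, within 2 members' promoters. The first is the CArG box of the *Egr2* window chr10:67537619-67537918 (plus strand), which begins 72 bases before the start site and is shared by 2 further *Egr2* windows that overlap this one. The second is the CArG box of the upstream *Egr2* window chr10:67537316-67537615 (plus strand), which also holds 3 matches to the ETS site, 2 of which overlap on opposite strands. The other 3 are the EGR sites of the *Nab1* window chr1:52500399-52500698 (minus strand), which begin 141, 109, and 38 bases before the start site.
Egr2 CArG box: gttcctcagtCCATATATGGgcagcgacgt
Egr2 upstream CArG box: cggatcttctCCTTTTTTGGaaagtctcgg
Nab1 EGR site 141 bases before the start, reverse strand: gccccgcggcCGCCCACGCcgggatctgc
Nab1 EGR site 109 bases before the start: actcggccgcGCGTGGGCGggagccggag
Nab1 EGR site 38 bases before the start: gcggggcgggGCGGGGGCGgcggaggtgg
Among 32851 mouse promoter windows of the same length, 1.63% held a CArG box, 5.55% an EGR site, 14.9% an ETS site, and 1.79% the cAMP response element. The *Egr4* and *Nab2* windows and the farthest upstream *Egr2* window held none of these letters. A match describes the sequence only, and binding was not measured here.

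Sample totals ranged from 30958966 to 76123359 expected counts. *Srsf3* was lower in shSrsf3 cells, with a log2 fold change of -0.34 (SE 0.0379) without and -0.43 (SE 0.038) with ligand (edgeR adjusted p = 7.95e-06 and 9.54e-07). All 10 mesenchyme markers examined, among them *Prrx1*, *Twist1*, and *Osr2*, were above 1 CPM (a count divided by its normalized library size). The summed level of these 10 was lower in shSrsf3 cells, at 35900 to 38200 CPM without and 35400 to 38300 CPM with ligand. In scramble cells it was 39900 to 41700 and 40100 to 40800 CPM. Abundant genes weigh most in this sum, since *Col1a1* and *Col1a2* had mean counts of 890900 and 565400, against 2951 for *Pdgfra*. *Col1a2* was lower in shSrsf3 cells (log2 fold change -0.37 without and -0.40 with ligand), while *Col1a1* did not pass the test (-0.08 and -0.05). The sum therefore does not describe each marker. The 4 endothelial markers summed to 30.5 to 34.6 CPM in scramble and 19.1 to 22.6 CPM in shSrsf3 samples, the 3 neuronal markers to 26.1 to 29.2 and 17.3 to 22.9 CPM, and the 6 epithelial markers to 4.78 to 6.15 and 2.91 to 4.15 CPM. Only *Tek* among the endothelial, *Tubb3* among the neuronal, and *Cdh1* and *Trp63* among the epithelial markers were above 1 CPM. The 3 muscle markers reached at most 0.579 CPM and were higher in shSrsf3 cells, while Schwann cell markers (up to 3.49 CPM) overlapped between the lines and blood markers (up to 1.68 CPM) overlapped with ligand but were lower in shSrsf3 cells without ligand. *Sox10* (neural crest and Schwann cells), *Elavl4* and *Snap25* (neurons), and *Myod1* (muscle) were at 0 in every sample. The paper's methods list the lowest mapping rates for 3 samples, namely replicates 1 and 2 of scramble -PDGF-AA and replicate 2 of scramble +PDGF-AA. In both scramble conditions, these samples were above the remaining samples of their condition for 6 of 6 members, an arrangement that 36.9% of all tested genes showed without ligand and 38.8% with ligand. The part of mapping rate in these levels was not tested, and results that change without these 3 samples are given with their values.

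PDGF-AA treatment for 1 hr raised all 4 EGR genes and *Nab2* in scramble cells and left *Nab1* without a detectable change. *Egr3* rose the most (5.32-fold), followed by *Egr4* (3.86-fold), *Egr1* (2.71-fold), and *Egr2* (2.64-fold), while *Nab2* rose 1.21-fold. In shSrsf3 cells, *Egr3* (2.78-fold), *Egr1* (2.11-fold), and *Egr2* (1.67-fold) rose. Thus 5 of 6 members in scramble cells and 3 of 6 in shSrsf3 cells passed an adjusted p of 0.05, beside 2% and 0.426% of the 15037 genes tested that were called as higher. The median log2 fold change of the members was 1.42 in scramble and 0.65 in shSrsf3 cells, and that of all tested genes was -0.00958 and -0.00436. With the additional 2-fold minimum that the study applied, 4 members in scramble cells and 2 in shSrsf3 cells were DE, beside 0.2% and 0.0399% of all genes. No member fell, beside 2.04% and 0.14% of all genes called as lower. In bulk RNA, fewer cells expressing a gene and less RNA per cell cannot be told apart.

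**Figure D1:**
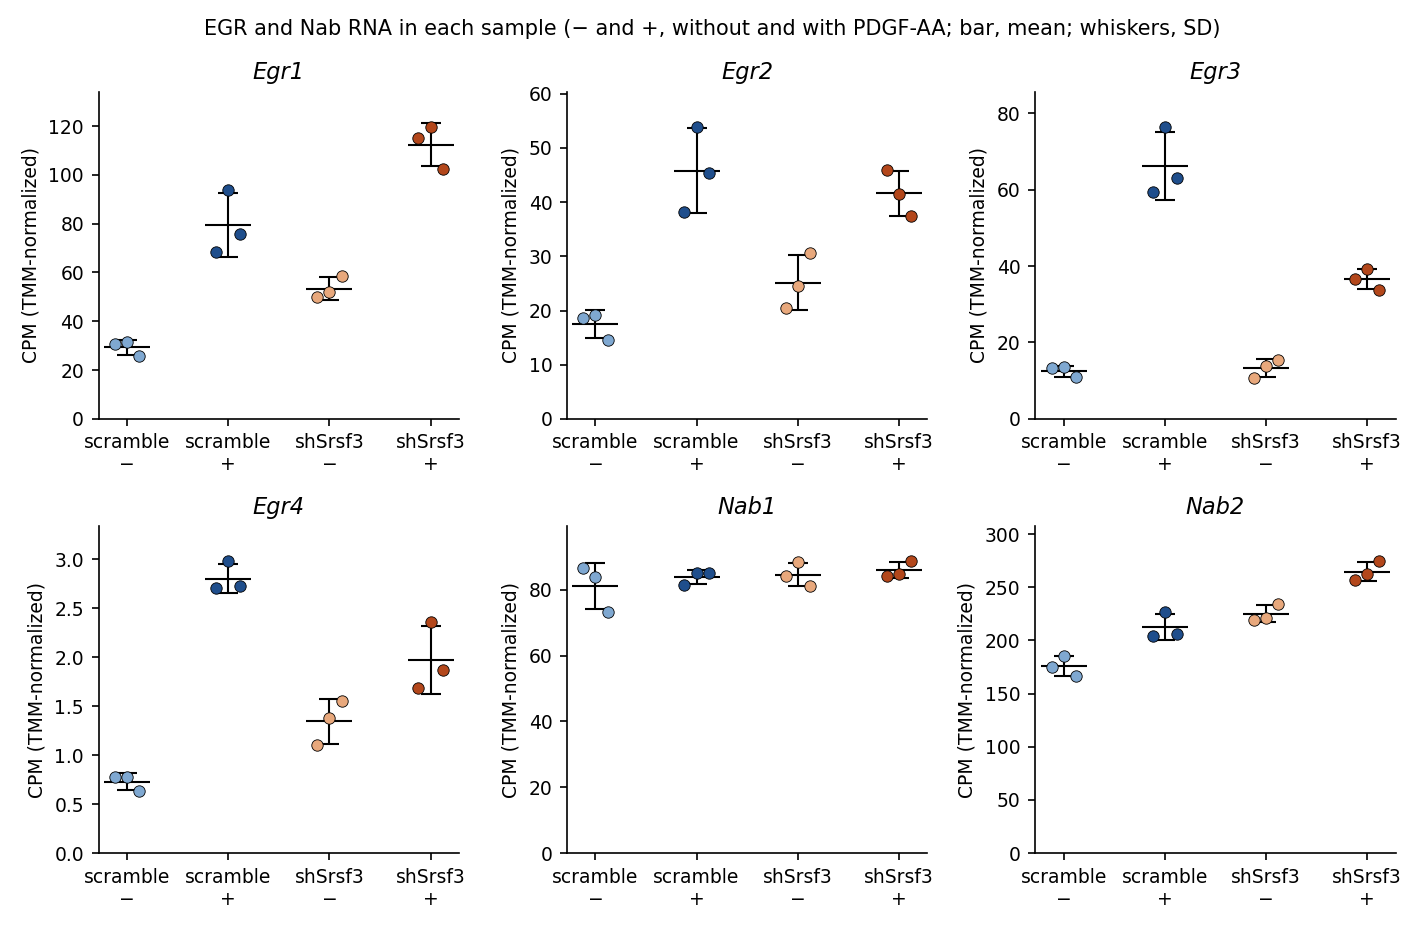
Levels of the 6 genes in CPM (linear axes from 0) in each of the 12 samples, by condition; points are samples, horizontal bars are means, and whiskers are SD (n = 3). The 3 *Egr3* samples of scramble +PDGF-AA lie between 59.4 and 76.4 CPM, above all shSrsf3 +PDGF-AA samples (33.8 to 39.2 CPM), whereas the *Egr1* samples of shSrsf3 +PDGF-AA lie above those of every other condition.

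*Egr1*, the founding member of the family and a widely used readout of ERK activity, differed between all 4 conditions without overlap. Its level was 30.6, 31.6, and 25.8 CPM in the scramble -PDGF-AA samples and 68.5, 93.9, and 75.7 CPM in the scramble +PDGF-AA samples. It was 49.9, 51.8, and 58.6 CPM in the shSrsf3 -PDGF-AA samples and 115, 119.6, and 102.6 CPM in the shSrsf3 +PDGF-AA samples. Both ligand-treated conditions therefore stood above both untreated ones, and within each treatment shSrsf3 stood above scramble. The log2 fold change upon ligand stimulation was 1.44 (SE 0.111, edgeR adjusted p = 9.66e-06) in scramble and 1.08 (SE 0.108, adjusted p = 0.000284) in shSrsf3 cells. *Srsf3* knockdown was accompanied by a log2 fold change of 0.87 (SE 0.111, adjusted p = 2.82e-05) without ligand and 0.50 (SE 0.107, adjusted p = 0.00192) with ligand. Relative to all RNA counted, unstimulated shSrsf3 cells thus held 1.82 times the *Egr1* RNA of unstimulated scramble cells.

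*Egr2*, known for its roles in hindbrain patterning and in myelination by Schwann cells, responded to the ligand in both lines. In scramble cells its level was 18.6, 19.2, and 14.5 CPM without and 38.2, 53.9, and 45.3 CPM with ligand. In shSrsf3 cells it was 20.4, 24.6, and 30.6 CPM without and 45.9, 41.6, and 37.4 CPM with ligand. The untreated conditions did not overlap, with shSrsf3 higher, whereas the ligand-treated conditions overlapped. The ligand's log2 fold change was 1.40 (SE 0.153, edgeR adjusted p = 0.000166) in scramble and 0.74 (SE 0.151, adjusted p = 0.0464) in shSrsf3 cells. The latter call was lost, with an adjusted p of 0.0615 to 0.262, without replicate 1 of scramble -PDGF-AA, replicate 3 of scramble +PDGF-AA, replicate 1 or 2 of shSrsf3 -PDGF-AA, or any replicate of shSrsf3 +PDGF-AA. Without ligand, *Egr2* was higher in shSrsf3 than scramble cells by a log2 fold change of 0.52 (SE 0.156, adjusted p = 0.0145), and this call was lost without replicate 3 of scramble -PDGF-AA (adjusted p = 0.0554) or replicate 3 of shSrsf3 -PDGF-AA (adjusted p = 0.062). With ligand, the difference between the lines was -0.14 (95% CI -0.45 to 0.18, adjusted p = 0.497).

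*Egr3*, which acts in muscle spindle formation and in T cells, showed a different order of the conditions from *Egr1*. Without ligand it lay at 13.2, 13.5, and 10.9 CPM in the scramble samples and at 10.8, 13.8, and 15.4 CPM in the shSrsf3 samples. With ligand it lay at 59.4, 76.4, and 63.0 CPM in the scramble samples and at 36.7, 39.2, and 33.8 CPM in the shSrsf3 samples. The untreated conditions overlapped, and with ligand every scramble sample was above every shSrsf3 sample. The log2 fold change upon ligand stimulation was 2.41 (SE 0.126, edgeR adjusted p = 3.08e-07) in scramble and 1.48 (SE 0.126, adjusted p = 0.000106) in shSrsf3 cells. Among the 12262 genes with a mean count of at least 50, this was the increase of rank 5 in scramble and rank 4 in shSrsf3 cells. The lines differed by a log2 fold change of 0.08 (95% CI -0.20 to 0.37, adjusted p = 0.65) without ligand and of -0.86 (SE 0.117, adjusted p = 5.41e-05) with ligand.

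*Egr4* was the least abundant member, with 30 to 176 expected counts per sample. Scramble cells held 0.779, 0.782, and 0.63 CPM without and 2.71, 2.98, and 2.72 CPM with ligand. The shSrsf3 cells held 1.10, 1.38, and 1.56 CPM without and 1.68, 2.35, and 1.87 CPM with ligand. The 4 conditions did not overlap, and the order of the lines was turned by the ligand. Without ligand every shSrsf3 sample was above every scramble sample, and with ligand every shSrsf3 sample was below. The ligand's log2 fold change was 1.95 (SE 0.182, edgeR adjusted p = 4.07e-05) in scramble cells. In shSrsf3 cells it was 0.56 (95% CI 0.18 to 0.94), which did not pass the test over all genes (adjusted p = 0.256). The effect of *Srsf3* knockdown was 0.87 (SE 0.19, adjusted p = 0.00205) without and -0.51 (SE 0.168, adjusted p = 0.0255) with ligand. This last call was lost without any 1 of 4 libraries, namely replicates 2 and 3 of scramble +PDGF-AA (adjusted p = 0.0735 and 0.0507) and replicates 1 and 3 of shSrsf3 +PDGF-AA (0.119 and 0.0807). It was also lost without the 3 samples of lowest mapping rate (adjusted p = 0.0613).

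*Nab1*, the corepressor described as expressed constitutively, had the condition means that varied least among the members. In scramble samples its level was 86.5, 83.9, and 73.3 CPM without and 81.6, 85.1, and 85.0 CPM with ligand. In shSrsf3 samples it was 84.3, 88.3, and 81.2 CPM without and 84.2, 84.9, and 88.7 CPM with ligand. Neighboring conditions in the order of their means overlapped. The log2 fold change with ligand was 0.05 (95% CI -0.07 to 0.17, edgeR adjusted p = 0.71) in scramble and 0.02 (95% CI -0.10 to 0.14, adjusted p = 0.959) in shSrsf3 cells. Between the lines it was 0.06 without ligand (adjusted p = 0.406) and 0.03 with ligand (adjusted p = 0.664). The lowest *Nab1* value came from replicate 3 of scramble -PDGF-AA, which is the only sample of its condition outside the 3 of lowest mapping rate. Without those 3, the difference between the lines without ligand was 0.20 and passed the test (adjusted p = 0.0122).

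*Nab2*, the inducible corepressor, had smaller fold changes with ligand than the EGR genes in both lines. This did not hold between the lines, where *Egr3* without ligand (log2 fold change 0.08) and *Egr2* with ligand (-0.14) differed less than *Nab2*. Scramble samples had 175.3, 185.6, and 166.8 CPM without and 204.6, 226.7, and 205.9 CPM with ligand. The shSrsf3 samples had 219.7, 221.2, and 234.5 CPM without and 257.1, 262.4, and 274.5 CPM with ligand. Unstimulated shSrsf3 cells overlapped with stimulated scramble cells, whereas the lowest and highest conditions stood apart from the others. The log2 fold change with ligand was 0.27 (SE 0.0508, edgeR adjusted p = 0.00834) in scramble cells and, at 0.23 (SE 0.0507), close to the threshold in shSrsf3 cells (edgeR adjusted p = 0.0602, DESeq2 adjusted p = 0.000634). With 1 library left out, the latter edgeR adjusted p lay between 0.0233 and 0.311, and it passed without replicate 2 or 3 of scramble -PDGF-AA or replicate 2 of scramble +PDGF-AA. *Srsf3* knockdown was accompanied by an increase of 0.36 (SE 0.0508, edgeR adjusted p = 7.56e-05) without and 0.32 (SE 0.0507, adjusted p = 0.00021) with ligand. The *Nab2* span overlaps *Stat6*, *Nemp1*, and *Gm16229* on the opposite strand. *Stat6*, which encodes a transcription factor of interleukin-4 signaling, also rose with knockdown, by 0.20 (edgeR adjusted p = 0.000473) without and 0.24 (adjusted p = 9.48e-05) with ligand, but had log2 fold changes of -0.04 and 0.01 with ligand (adjusted p = 0.602 and 0.989). *Nemp1*, which encodes a protein of the inner nuclear membrane, was higher with knockdown by 0.29 without ligand (adjusted p = 0.0305), and *Gm16229* had at most 0.451 CPM. Their part in the *Nab2* values was not tested. Libraries were stranded, but whether strand was used in quantification is not given in the sources used here.

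Between the lines, 4 of 6 members were higher in shSrsf3 cells without ligand (*Egr1*, *Egr2*, *Egr4*, and *Nab2*), and none was lower. With ligand, *Egr1* and *Nab2* were higher and *Egr3* and *Egr4* were lower. The summed mesenchyme, endothelial, neuronal, epithelial, and muscle markers also did not overlap between the lines without or with ligand, and their part in these differences was not tested. The counts of members stand beside a wide background, since 22.2% of all genes were called as higher and 23.7% as lower without ligand, and 20.3% and 20.7% with ligand. None of the members reached a 2-fold difference between the lines, beside 5.75% of all genes without and 5.42% with ligand that were DE by that rule. The median log2 fold change of the members was 0.44 without and -0.05 with ligand, and that of all tested genes was -0.02 and -0.01. Samples did not overlap for 4 of 6 members in each *Srsf3* comparison, beside 53.3% and 52.6% of all genes. For the ligand, the samples of 5 of 6 members did not overlap in either line, beside 18.8% and 18% of all genes.

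**Figure D2:**
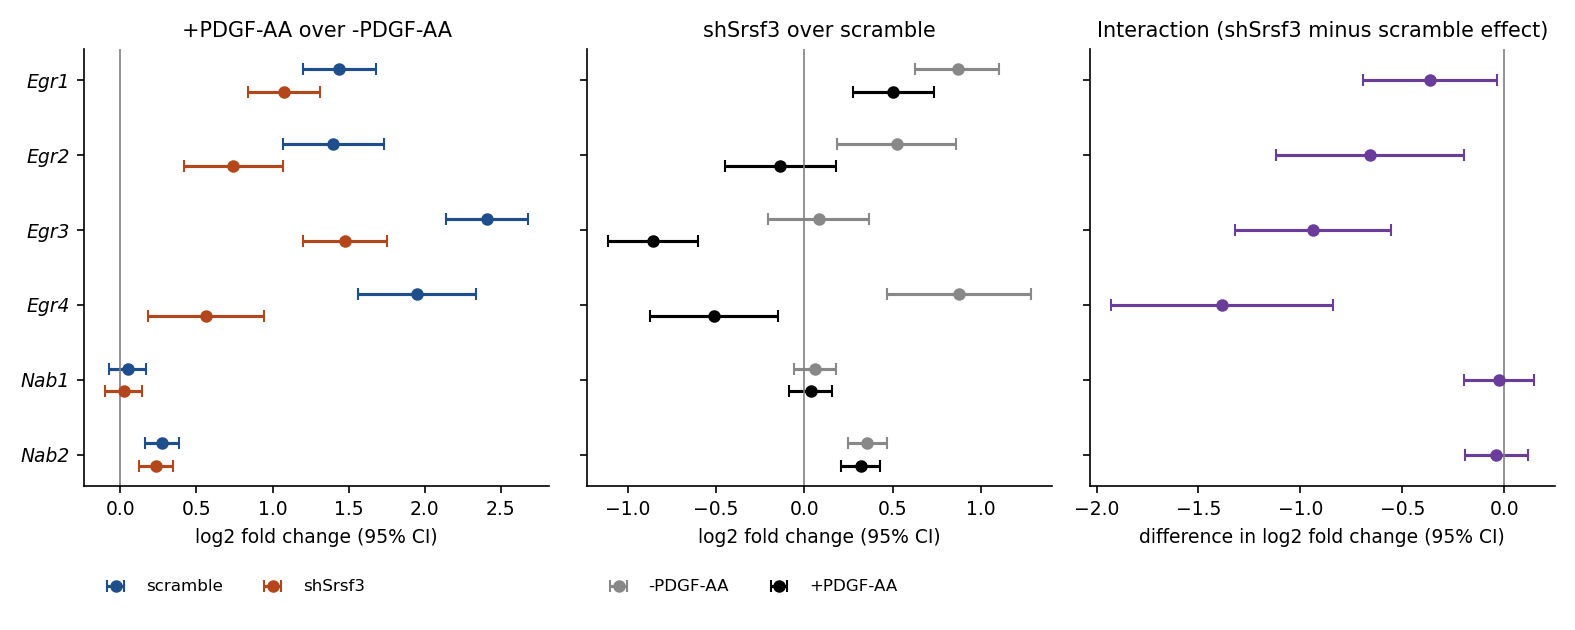
Log2 fold changes of the 6 genes upon ligand stimulation (left, scramble and shSrsf3), between shSrsf3 and scramble cells (middle, without and with ligand), and the interaction (right); points are edgeR estimates and bars are 95% confidence intervals. The estimated ligand effect of each EGR gene is smaller in shSrsf3 than in scramble cells, and the interaction of *Egr4* is -1.39 against -0.03 for *Nab1*.

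Whether the ligand effect itself differed between the lines was tested with the interaction term, which is the log2 fold change in shSrsf3 minus that in scramble cells. All 4 EGR genes had negative values, that is, a smaller estimate of the ligand effect on the log2 scale in shSrsf3 cells. For *Egr1* this depends on the scale. Its mean went from 29.33 to 79.39 CPM in scramble and from 53.43 to 112.4 CPM in shSrsf3 cells, a rise in CPM that was not smaller in shSrsf3 cells. The values were -1.39 (95% CI -1.93 to -0.84) for *Egr4*, -0.94 (95% CI -1.32 to -0.56) for *Egr3*, -0.66 (95% CI -1.12 to -0.20) for *Egr2*, and -0.36 (95% CI -0.69 to -0.03) for *Egr1*. Those of *Nab1* (-0.03, 95% CI -0.20 to 0.14) and *Nab2* (-0.04, 95% CI -0.19 to 0.12) lay near 0. No member passed adjustment over all genes in edgeR, with adjusted p = 0.162 for *Egr4*, 0.174 for *Egr3*, 0.77 for *Egr2*, and 0.874 for *Egr1*. In edgeR only 2 of 15037 genes (0.0133%) passed, and 833 had an unadjusted p under 0.05. With DESeq2, 26 genes (0.173%) passed, among them *Egr4* (adjusted p = 0.00728) and *Egr3* (adjusted p = 0.01). Among the 12262 genes with a mean count of at least 50, the interactions of *Egr4*, *Egr3*, *Egr2*, and *Egr1* had the ranks 10, 22, 50, and 199 from the most negative.

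Levels were compared between genes after division by the length of the canonical transcript (CPM per kb). *Nab2* was the most abundant member in every condition on this scale, from 39.3 ± 2.10 CPM per kb (SD, n = 3) in scramble -PDGF-AA to 59.1 ± 2.00 in shSrsf3 +PDGF-AA. *Egr4* was the least abundant, from 0.156 ± 0.0186 to 0.599 ± 0.0325 CPM per kb. The summed level of the 4 EGR genes rose from 15.4 ± 1.90 to 48.9 ± 7.58 CPM per kb with ligand in scramble cells and from 23.7 ± 3.28 to 47.8 ± 3.68 in shSrsf3 cells. The stimulated conditions overlapped in this sum, with 42.3 to 57.2 CPM per kb in scramble and 43.6 to 50.1 in shSrsf3 samples.

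A like sum was made up differently in the 2 lines. *Egr3* supplied 31.2% ± 0.901 (SD, n = 3) of the EGR sum in stimulated scramble cells and 17.6% ± 0.574 in stimulated shSrsf3 cells, while *Egr1* supplied 36.1% ± 0.396 and 52.3% ± 0.866. The ratio of *Egr3* to *Egr1* was 0.895, 0.84, and 0.859 in the stimulated scramble samples and 0.33, 0.339, and 0.341 in the stimulated shSrsf3 samples. Without ligand it was 0.445, 0.442, and 0.435 in scramble and 0.223, 0.276, and 0.271 in shSrsf3 samples. Thus the ratio was lower in shSrsf3 cells with and without ligand, and its spread between replicates was small beside these differences. An exact permutation test of 3 against 3 samples cannot give a two-sided p below 0.1, and none was made for these ratios.

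The balance of activators and corepressors moved with the ligand. Summed EGR RNA was 0.294 ± 0.0206 (SD, n = 3) of the summed Nab RNA, per kb, in scramble -PDGF-AA and 0.798 ± 0.085 in scramble +PDGF-AA. In shSrsf3 cells this ratio was 0.37 ± 0.0428 without and 0.656 ± 0.0697 with ligand. The ligand-treated samples of both lines, at 0.576 or more, lay above the untreated samples, at 0.415 or less. The ratio of *Nab2* to *Nab1* was lowest in scramble -PDGF-AA (3.0 ± 0.18) and highest in shSrsf3 +PDGF-AA (4.25 ± 0.0325).

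**Figure D3:**
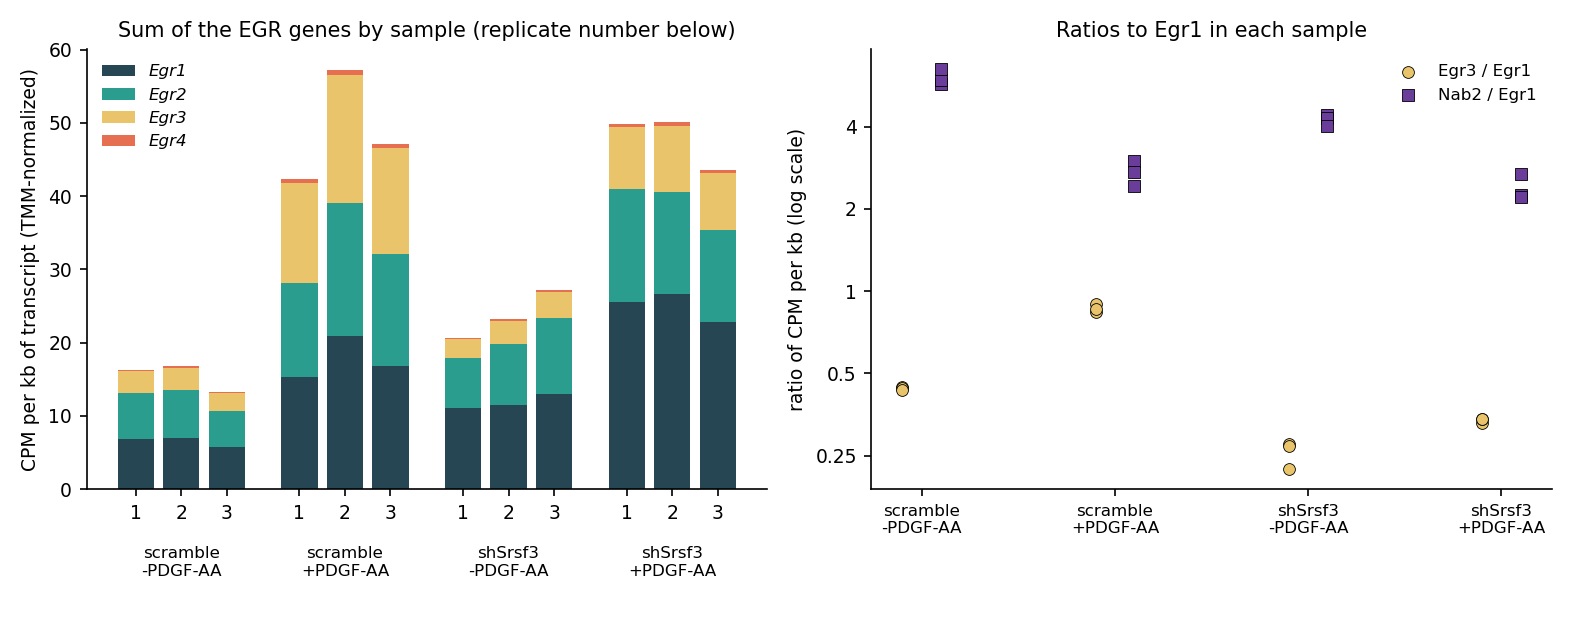
Left, EGR RNA in CPM per kb of canonical transcript in each sample, stacked by gene (bars start at 0); right, the ratios of *Egr3* and of *Nab2* to *Egr1* in each sample, on a log scale. The stimulated conditions have overlapping EGR sums, while the ratio of *Egr3* to *Egr1* lies between 0.84 and 0.895 in stimulated scramble and between 0.33 and 0.341 in stimulated shSrsf3 samples.

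Within conditions, the EGR genes deviated from their condition's mean together. The correlation of log2 CPM after removal of the condition means, over 12 samples, was r = 0.929 between *Egr2* and *Egr3*, 0.906 between *Egr1* and *Egr2*, and 0.885 between *Egr1* and *Egr3*. *Egr4* had r = 0.646 with *Egr1*, 0.626 with *Egr2*, and 0.83 with *Egr3*. With the 4 EGR genes, *Nab2* had r between 0.554 (*Egr4*) and 0.715 (*Egr1*), and *Nab1* had r between 0.295 and 0.321. The points share libraries and their normalization, and in scramble cells these deviations also separate the samples of lowest mapping rate from the others, so that these values are a description only.

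The genes whose levels followed each member most closely were sought among 12256 genes with a mean count of at least 50, by the Pearson correlation of log2 CPM over the 12 samples. For *Egr1* these were *Plk3* (r = 0.99), *Zfp36l2* (0.976), *Fosl1* (0.967), *Arc* (0.965), and *Ier5* (0.964). Of these, *Fosl1* encodes an AP-1 subunit, and *Zfp36l2* encodes a protein that promotes decay of AU-rich mRNAs. For *Egr3* they were *Slc30a1* (r = 0.98), *Slc7a1* (0.975), *Arid5a* (0.974), *Klf10* (0.973), and *Hk2* (0.972), which include a zinc exporter, a cationic amino acid transporter, and a hexokinase. For *Nab2* they included *Cbarp* (r = 0.972), *Nr4a1* (0.967), *Fosb* (0.965), and *Ereg* (0.962). No gene named here was in more than 1 of the 3 sets. Because these genes were selected by correlation over the same samples, a like order of conditions follows from the selection and is no separate result. *Plk3* had its highest mean in shSrsf3 +PDGF-AA (34.7 CPM, against 29.6 in scramble +PDGF-AA). *Slc30a1* had its highest mean in scramble +PDGF-AA (33.1 CPM, against 28.7 in shSrsf3 +PDGF-AA).

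The signaling input to the EGR genes was described by 24 genes for the PDGF receptor, Ras, MEK, ERK, SRF, its cofactors, and CREB, all of which were tested. With ligand, none rose in either line, and 1 fell, namely *Pdgfra* in scramble cells (log2 fold change -0.30, SE 0.0559, edgeR adjusted p = 0.00764). Beside these stand 2% of all genes called as higher and 2.04% as lower in scramble cells, and 0.426% and 0.14% in shSrsf3 cells. Counts this low do not set the list apart from other genes. The median log2 fold change with ligand was -0.01 in scramble and -0.02 in shSrsf3 cells. Between the lines, 10 were higher and 8 lower in shSrsf3 cells without ligand, and 8 were higher and 7 lower with ligand. Over all genes tested, 22.2% were called as higher and 23.7% as lower without ligand, and 20.3% and 20.7% with ligand. *Pdgfra*, the receptor of the ligand, was lower in shSrsf3 cells by a log2 fold change of -0.53 (SE 0.0562, adjusted p = 5.33e-06) without ligand. *Rps6ka1*, which encodes a kinase downstream of ERK, was higher (0.44, adjusted p = 0.000363), as were the SRF cofactor gene *Elk4* (0.28, adjusted p = 0.000348) and *Map2k1*, which encodes MEK1 (0.27, adjusted p = 0.00144). With ligand, *Mapk3*, which encodes ERK1, was higher in shSrsf3 cells (0.39, adjusted p = 7.12e-06).

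Other immediate early genes numbered 29. In scramble cells 15 rose and none fell with ligand, with a median log2 fold change of 0.30, and in shSrsf3 cells 8 rose and 1 fell, with a median of 0.18. Of all genes, 2% rose and 2.04% fell in scramble cells, and 0.426% and 0.14% in shSrsf3 cells. The nuclear receptor gene *Nr4a1* (1.59, SE 0.155, edgeR adjusted p = 6.09e-05), *Arc* (1.47, SE 0.12, adjusted p = 1.4e-05), *Klf10* (1.40, SE 0.0485, adjusted p = 3.03e-09), and *Fosl1* (0.95, SE 0.104, adjusted p = 0.000172) rose the most in scramble cells. In shSrsf3 cells these were *Klf10* (1.22), *Fosb* (1.03), *Nr4a1* (0.92), and *Arc* (0.75), all below an adjusted p of 0.05. The gene that fell in shSrsf3 cells was *Fos*, which encodes an AP-1 subunit (-0.58, SE 0.0968, adjusted p = 0.0128), at -0.04 in scramble cells (adjusted p = 0.886). Between the lines, 19 were higher and 3 lower in shSrsf3 cells without ligand (median 0.35), and 13 were higher and 3 lower with ligand (median 0.19), beside the same shares of all genes (22.2% and 23.7% without, 20.3% and 20.7% with ligand) and medians of -0.02 and -0.01. The lower genes were *Myc* (-0.38), *Klf10* (-0.32), and *Mcl1* (-0.17) without ligand and *Klf10* (-0.50), *Myc* (-0.41), and *Ccn1* (-0.20) with ligand. *Fos*, *Myc*, *Mcl1*, and *Ccn1* are named here after their values were seen. *Nr4a1* was higher in unstimulated shSrsf3 than scramble cells by 1.61 (SE 0.155, adjusted p = 2.09e-06), as were *Arc* (1.28), and *Dusp5* (1.15) and *Dusp6* (0.99), which encode phosphatases of ERK. *Nr4a1* shared with *Egr1* and *Nab2* a highest level in shSrsf3 +PDGF-AA, with means of 114.9, 346.6, 350.1, and 660 CPM in scramble -PDGF-AA, scramble +PDGF-AA, shSrsf3 -PDGF-AA, and shSrsf3 +PDGF-AA. *Klf10* was at 57.7, 151.8, 46.3, and 107.4 CPM in the same conditions, so that it was highest in stimulated scramble cells, as *Egr3* was.

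**Figure D4:**
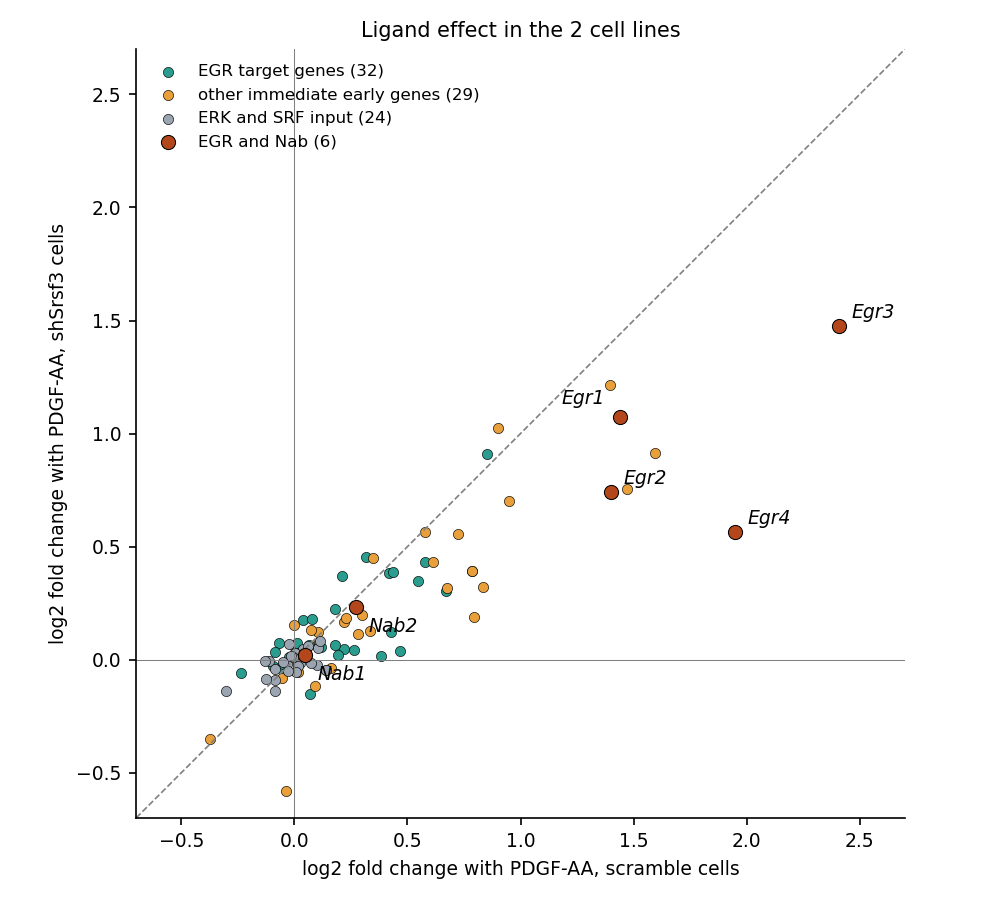
Log2 fold change upon ligand stimulation in scramble (x axis) and shSrsf3 cells (y axis) for the 6 EGR and Nab genes and 3 gene lists (1 point per gene, the number of genes in the key; *Atf3* and *Srf* belong to 2 lists each); the dashed line marks equal effects. *Egr3* (2.41 and 1.48) and *Egr4* (1.95 and 0.56) lie farthest to the right and below the line, and the genes of the ERK and SRF input lie around 0.

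Known EGR target genes made up a list of 34, of which 32 were tested (*Lhb* and *Fasl* had too few counts). With ligand, 12 rose in scramble and 4 in shSrsf3 cells, beside 2% and 0.426% of all genes, and none fell. The median log2 fold change was 0.18 in scramble and 0.07 in shSrsf3 cells. In scramble cells those that rose included the chemokine gene *Ccl2* (0.85, SE 0.113, edgeR adjusted p = 0.000816), *Atf3* (0.79, SE 0.102, adjusted p = 0.000657), and the phosphatase gene *Dusp4* (0.55, SE 0.0726, adjusted p = 0.00082). In shSrsf3 cells *Ccl2* (0.91, adjusted p = 0.00228), *Sphk1* (0.46, adjusted p = 0.0288), *Vegfa* (0.39, adjusted p = 0.0041), and *Gadd45b* (0.37, adjusted p = 0.0131) rose. Between the lines, 9 were higher and 13 lower in shSrsf3 cells without ligand, and 7 were higher and 14 lower with ligand, beside 22.2% and 23.7% of all genes without and 20.3% and 20.7% with ligand. Their median log2 fold change between the lines was -0.08 without and -0.06 with ligand, against -0.02 and -0.01 for all genes. The growth factor genes *Igf2* (-1.93, SE 0.12, adjusted p = 2.99e-08) and *Pdgfb* (-1.14, SE 0.163, adjusted p = 7.69e-05) were lower in unstimulated shSrsf3 cells, and *Dusp4* (0.74, adjusted p = 2.42e-06) and the protease gene *Plau* (0.65, adjusted p = 1.97e-06) were higher. The tissue factor gene *F3* was lower with ligand (-0.67, adjusted p = 1.22e-05).

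The 15 genes of the NuRD complex, through which Nab proteins repress, did not pass the test with ligand in either line. Few of all genes did, with 2% higher and 2.04% lower in scramble cells and 0.426% and 0.14% in shSrsf3 cells. Between the lines, 5 were higher and 5 lower in shSrsf3 cells without ligand, and 6 were higher and 3 lower with ligand, again beside 22.2% and 23.7% of all genes without and 20.3% and 20.7% with ligand. The remodeling ATPase gene *Chd4* was higher by 0.24 (SE 0.0346, edgeR adjusted p = 9.39e-05) without and 0.23 (adjusted p = 0.000149) with ligand, and its paralog *Chd5*, at a lower level, by 0.53 (adjusted p = 0.000387) and 0.62 (adjusted p = 0.000107). *Mta2*, which encodes a scaffold subunit, had changes of -0.22 (adjusted p = 0.000162) and -0.20 (adjusted p = 0.000484), and *Gatad2b* of -0.19 (adjusted p = 0.00868) without ligand. *Chd3* had changes of -0.17 (adjusted p = 0.00141) without and -0.19 (adjusted p = 0.000735) with ligand. The rest, named after their values were seen, had smaller changes than *Chd3*, with *Mta1*, *Mbd3*, and *Cdk2ap1* higher and *Mta3* and *Rbbp4* lower without ligand, and *Hdac1*, *Mta1*, *Mbd3*, and *Rbbp7* higher and *Rbbp4* lower with ligand. Of 10 genes for EGR partners and other proteins that bind GC-rich sites, 9 were tested (*Wt1* had too few counts). None passed with ligand, beside the same low ligand shares of all genes. In shSrsf3 cells without ligand, 2 were higher, among them *Maz* (0.35, adjusted p = 1.24e-05), and *Sp3* (-0.16, adjusted p = 0.0139) and *Sp4* (-0.24, adjusted p = 0.0313) were lower. With ligand, 2 were higher, among them *Maz* (0.39, adjusted p = 4.24e-06), and 1 was lower, namely *Sp3* (-0.16, adjusted p = 0.0149). Of all genes, 22.2% were called as higher and 23.7% as lower without ligand, and 20.3% and 20.7% with ligand. These counts therefore do not set the 9 genes apart from other genes.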

How the data were processed

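The 12 RNA-seq samples were assigned to 4 conditions by their labels. The authors trimmed reads with BBDuk, quantified transcripts with Salmon (1.4.0) on GENCODE M26 (GRCm39) and summed them per gene with tximport. The deposited unit is the expected count, not scaled to library size, and 16.3% of values were not whole. How tximport scaled them is not given in the sources used here. Expected counts were rounded, filtered with filterByExpr (minimum count 10), and normalized with TMM in edgeR 4.0.16 (R 4.3.3), leaving 15037 genes. CPM values use these factors. The quasi-likelihood test was fitted across all genes and 12 samples with a mean for each condition, with Benjamini-Hochberg adjustment over all genes and a threshold of 0.05. DESeq2 1.42.0, other normalizations, no filter, a replicate block, only the groups compared, a 2-fold minimum, and leaving out samples were alternatives. The steps were tested on simulated data. No libraries agreed within sampling noise. Precision is set by 3 samples per condition and, for low genes, by counts.

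The members and gene lists were chosen with earlier results of these data known. Text names all members, *Srsf3*, *Pdgfra*, genes that overlap a member, up to 4 called genes per list and comparison by size of change (mean count of at least 50), and the 5 genes most alike *Egr1*, *Egr3*, and *Nab2*. Some genes that this rule names are not reported here. *Egr1* and *Egr3* promoters and all protein sequences were not analysed here. Transcript lengths and positions came from GENCODE M39 (GRCm39). Same-numbered samples were not treated as pairs, and their deviations correlated between -0.383 and 0.415. These values cannot show whether samples were paired, because in scramble cells the correlations between ligand states followed the mapping rate. Samples of lowest mapping rate correlated with each other at 0.396 and 0.415, the remaining samples with each other at 0.552 and 0.322, and all mixed pairs were negative. In scramble cells, replicate 3 without ligand correlated at 0.552 with replicate 1 and at -0.586 with replicate 2 with ligand. The source of this pattern was not tested.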

Additional observations from a re-analysis of the deposited data

Results flagged for a closer look

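The *Egr4* difference between the lines had opposite directions without and with ligand, although its samples were higher with ligand in both lines. Every shSrsf3 sample was above every scramble sample without ligand and below every scramble sample with ligand. The call between the lines with ligand was lost without any 1 of 4 libraries. The interaction, tested directly, was -1.39 on the log2 scale, which did not pass adjustment over all genes in edgeR (adjusted p = 0.162) and did in DESeq2 (adjusted p = 0.00728). The counts behind it were 30 to 176 per sample.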

How the results depend on the processing

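Of 594 values recomputed for the members under the alternatives, 562 stayed on their side of the threshold, 16 no longer passed, and 16 newly passed. None that was called reversed. The 562 include 8 values that were not called and changed sign. The ligand effects of *Egr1* and *Egr3* in both lines and of *Egr2* and *Egr4* in scramble cells passed in all 20 alternatives. *Egr2* in shSrsf3 cells passed in 12 of 20 (adjusted p of up to 0.262) and *Nab2* there in 8 of 20 (up to 0.311). *Nab2* in scramble cells was lost with only the groups compared (edgeR adjusted p = 0.052). With a 2-fold minimum, 0 members were called in either *Srsf3* comparison. For the interaction, where edgeR called 0 members, 4 were called with no filter on low counts and 2 with DESeq2. The edgeR fit with no filter gave far smaller adjusted p-values, such as 1.89e-24 for the *Egr3* interaction, against 0.174 with the filter. With 3 samples per condition, calls and gene counts from the fit with no filter are therefore not read as support. The replicate block changed 1 call, *Egr2* in shSrsf3 cells (0.75, edgeR adjusted p = 0.0548), giving 5, 2, 4, 4, and 0 members called. *Egr2* between the lines with ligand passed with no filter (-0.15, edgeR adjusted p = 0.0394). Counts of all genes called moved more. The 608 genes of the ligand effect in scramble cells became 1289 with no filter, 247 with only the groups compared, and 243 (without replicate 3 of scramble +PDGF-AA) to 1472 (without replicate 3 of scramble -PDGF-AA). The 85 genes in shSrsf3 cells became 374 with no filter, 213 with DESeq2, 231 without the 3 samples of lowest mapping rate, 201 with only the groups compared, and 23 to 168 without 1 library. The 2 genes of the interaction became 218, 26, and 16 under the first 3 of these, 1 with the block or equal depth, and 1 to 6 without 1 library. The cause of these changes was not tested.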
